A study of Homo sapiens with 30 samples.

Results

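The progestin response of T47D cells given siRNA against CEBPA was described from 4 RNA-seq libraries, 2 labelled progestin (siCEBPA progestin) and 2 labelled untreated (siCEBPA untreated). They were chosen by their titles, out of 12 RNA-seq libraries and 30 samples in the series. T47D, used here at passages 18 to 20, is an established line from a human breast carcinoma of luminal type with abundant progesterone receptor. The siCEBPA progestin cells had the synthetic progestin R5020 at 10 nM and the time label T360, and the siCEBPA untreated cells had the time label T0. Both had siRNA against CEBPA and a short arrest of 4 hours in charcoal-stripped serum, which lacks most steroids. The control siRNA cells (siControl progestin and siControl untreated, 2 libraries each) had the same arrest, hormone and time labels, and were used only to compare responses. The labels give no unit for the time and no siRNA sequence. No untreated T360 library with CEBPA siRNA was analysed here, so hormone and time label cannot be told apart. Whether the replicates came from separate cultures is not stated, so p-values may reflect technical spread only.

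Progesterone receptor is a ligand-activated transcription factor held by chaperones until hormone binds, after which it enters chromatin at hormone response elements and recruits coactivators. It also acts through kinase cascades at the membrane. In breast epithelium progestins are known for a short mitogenic phase, for a later arrest of growth, and for a rise of secretory and metabolic genes. C/EBPα, the product of CEBPA, is a leucine zipper transcription factor known for driving differentiation and restraining growth in several lineages.

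The 4 siCEBPA libraries held 57364785 to 70704799 read pairs in genes. Levels are CPM, a library's counts scaled by its total and its TMM factor, given for replicates 1 and 2 in that order. Changes are log2 fold changes of progestin over untreated ± standard error, n = 2 libraries in each group. A gene is said to have risen or fallen where edgeR's quasi-likelihood test gave an adjusted p under 0.05. The standard errors were worked back from the F statistic of this test, in a fit of 8 libraries. They are not the spread between the 2 libraries of a group. The replicates of each group had correlations of log2 CPM of 0.998, and differed beyond counting noise, with a mean chi-square per gene of 10.1 for the progestin and 7.76 for the untreated pair. Replicate 2 of both siCEBPA groups had higher levels of interferon-stimulated genes than replicate 1, and these values are given with that gene group. The luminal type of the line was checked with 13 epithelial markers, which were all present and summed to 8606 to 8927 CPM with progestin and to 9001 to 9034 CPM untreated. The 12 basal and myoepithelial markers summed to 186 to 190.4 CPM with progestin and to 182 to 186 CPM untreated. Of 17 markers of fibroblasts, endothelium and blood cells, HBB was at 0 counts in all 4 libraries, and the 17 summed to 61.7 to 69.8 CPM with progestin and to 70.2 to 74.4 CPM untreated, and COL1A1 held most of it at 55.9 and 64.2 CPM with progestin and 65.5 and 69.1 CPM untreated. In such bulk samples fewer cells of a type and less RNA per cell cannot be told apart.

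CEBPA, the target of the siRNA, rose with hormone although it was knocked down. It stood at 57.6 and 61.9 CPM in the siCEBPA progestin libraries and at 10.7 and 12.1 CPM in the siCEBPA untreated libraries, a change of 2.39 ± 0.07 (adjusted p = 8.07e-13). The siControl libraries held 204 and 202 CPM with progestin and 47.5 and 54.2 CPM untreated. Both siCEBPA progestin libraries thus lay above both siControl untreated libraries, and all 4 siCEBPA libraries lay below their siControl counterparts. The knockdown was -1.76 ± 0.06 on the log2 scale with progestin and -2.16 ± 0.07 without. PGR, the receptor gene, fell, with 386 and 377 CPM in the progestin and 855 and 844 CPM in the untreated libraries (-1.15 ± 0.04, adjusted p = 2.91e-13).

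Hormone went with a broad change of the transcriptome. Of 18351 genes tested, 10685 passed the test (58.2%), 5482 of them higher (29.9%) and 5203 lower (28.4%) with progestin. Changes of at least 2-fold were made by 1532 genes that rose (8.35%) and 1530 that fell (8.34%), and 5366 of the called genes changed less than 1.5-fold. Large rises outnumbered large falls, with 127 genes up and 24 genes down at least 16-fold. The 1532 genes held 10.3 and 10.5% of all CPM in the progestin libraries, against 4.00 and 4.03% in the untreated libraries. The 1530 genes held 0.761 and 0.745% in the progestin and 2.30 and 2.36% in the untreated libraries. All 10685 called genes changed in the same direction in both replicate numbers. This is no separate support, because the calls came from these same libraries. The median over all genes was -0.03, and it was -0.16 with upper quartile scaling and -0.19 with no scaling factors, under which the share of higher calls was 36.9 and 33.3% instead of 51.3%. No gene called under both settings changed sign, and 123 genes called with TMM lay on the other side of 0, uncalled, with upper quartile scaling and 372 with no scaling factors.

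**Figure D1:**
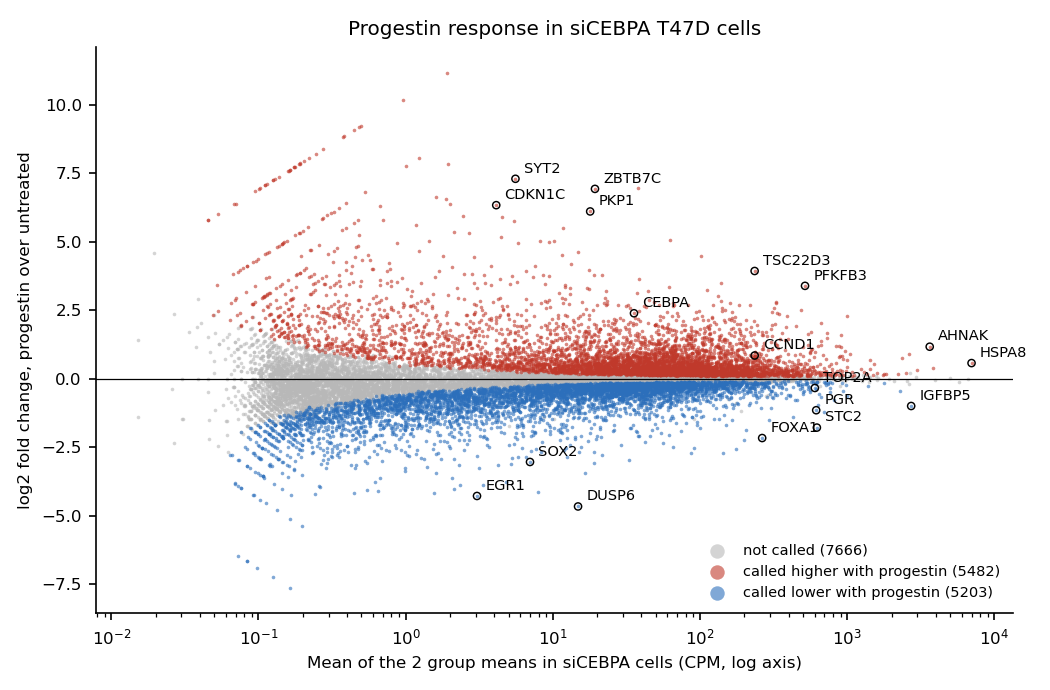
Each point is 1 of 18351 genes, with the mean CPM of the siCEBPA progestin and untreated groups on the x axis (log scale) and the log2 fold change of progestin over untreated on the y axis. Red points rose, blue points fell and grey points did not pass the test; named genes are circled, from SYT2 at 7.30 to DUSP6 at -4.67. The parallel lines of points at the left are genes with 0 or a few counts in one group.

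Among genes that reached a mean of 5 CPM in a siCEBPA group, the largest rises were of genes nearly silent without hormone. SYT2 (ENSG00000143858.11, chromosome 1 from 202590596 to 202710417 on hg38), a synaptotagmin that acts as a calcium sensor of vesicle fusion, had 11.5 and 10.6 CPM with progestin and 0.0589 and 0.0792 CPM untreated (7.30 ± 0.21, adjusted p = 6.39e-14). ZBTB7C (ENSG00000184828.9, chromosome 18 from 48026673 to 48410752), a zinc finger protein, had 37.4 and 39.3 CPM with progestin and 0.383 and 0.238 CPM untreated (6.93 ± 0.13). PKP1 (ENSG00000081277.11, chromosome 1 from 201283452 to 201332993), a plakophilin of desmosomes, had 34.5 and 36.2 CPM with progestin and 0.456 and 0.570 CPM untreated (6.11 ± 0.12). For these genes each progestin library was far above both untreated libraries. The largest rises and falls were taken only from called genes whose groups did not overlap. CDKN1C, which encodes the cell cycle inhibitor p57, had 7.26 and 9.05 CPM with progestin and 0.103 and 0.0950 CPM untreated (6.34 ± 0.25). APLN, which encodes the secreted peptide apelin, had 8.71 and 8.95 CPM with progestin and 0.162 and 0.127 CPM untreated (5.91 ± 0.21). MAP7D2 (5.74 ± 0.19), the palmitoyltransferase ZDHHC14 (5.51 ± 0.14), FAXDC2 (5.32 ± 0.26) and the potassium channel KCNC1 (5.03 ± 0.13) followed, and the keratin pseudogene KRT89P (5.18 ± 0.23) is uncertain because its reads may be split with its paralogs.

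Among genes at a mean under 0.1 CPM untreated, 22 rose to at least 1 CPM in both progestin libraries. SCRG1 had 263 and 240 counts with progestin and 0 in both untreated libraries, so its level was at least 167-fold higher, against a floor of 3 counts over the untreated group. CA4, a membrane-bound carbonic anhydrase, had 123 and 128 counts with progestin and 0 in both untreated libraries, at least 83.4-fold higher. KRT5, a keratin of basal cells, had 131 and 132 counts with progestin and 0 and 1 untreated, a ratio of 262 with a 95% counting interval of 46.6 to 10392. MOGAT2, an acyltransferase of triglyceride synthesis, had 152 and 172 counts with progestin and 0 and 1 untreated (ratio 323, interval 57.6 to 12793). PHACTR3 had 268 and 243 counts with progestin and 1 in each untreated library (ratio 255, interval 70.1 to 2108). These intervals are exact and cover counting error only, and they are wide because 1 or 2 counts stand in the untreated group.

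Among genes that reached 5 CPM in a group, the largest falls were led by DUSP6 (ENSG00000139318.7, chromosome 12 from 89347232 to 89353271), the phosphatase that inactivates ERK, with 0.860 and 1.40 CPM in the progestin and 29.0 and 28.1 CPM in the untreated libraries (-4.67 ± 0.13, adjusted p = 2.89e-13). EGR1, an immediate early zinc finger factor, had 0.306 and 0.286 CPM with progestin and 6.28 and 5.34 CPM untreated (-4.29 ± 0.19). RBBP8NL had 0.918 and 0.779 CPM with progestin and 14.7 and 15.5 CPM untreated (-4.15 ± 0.12). In each of the 3 the progestin libraries lay well below the untreated ones. AMIGO2, an adhesion protein of neurons and endothelium, had 3.04 and 2.48 CPM with progestin and 28.3 and 32.1 CPM untreated (-3.45 ± 0.10). SOX2, a transcription factor of stem cells, had 1.57 and 1.45 CPM with progestin and 13.04 and 11.9 CPM untreated (-3.04 ± 0.13). LRRK2, a kinase of vesicle traffic, had 4.41 and 3.62 CPM with progestin and 35.5 and 33.1 CPM untreated (-3.09 ± 0.10). RIPOR3 (-3.78 ± 0.14), SHISA2 (-3.28 ± 0.22), the cytokine TNFSF15 (-3.12 ± 0.15) and the secreted glycoprotein STC1 (-2.96 ± 0.07) fell in a similar range.

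**Figure D2:**
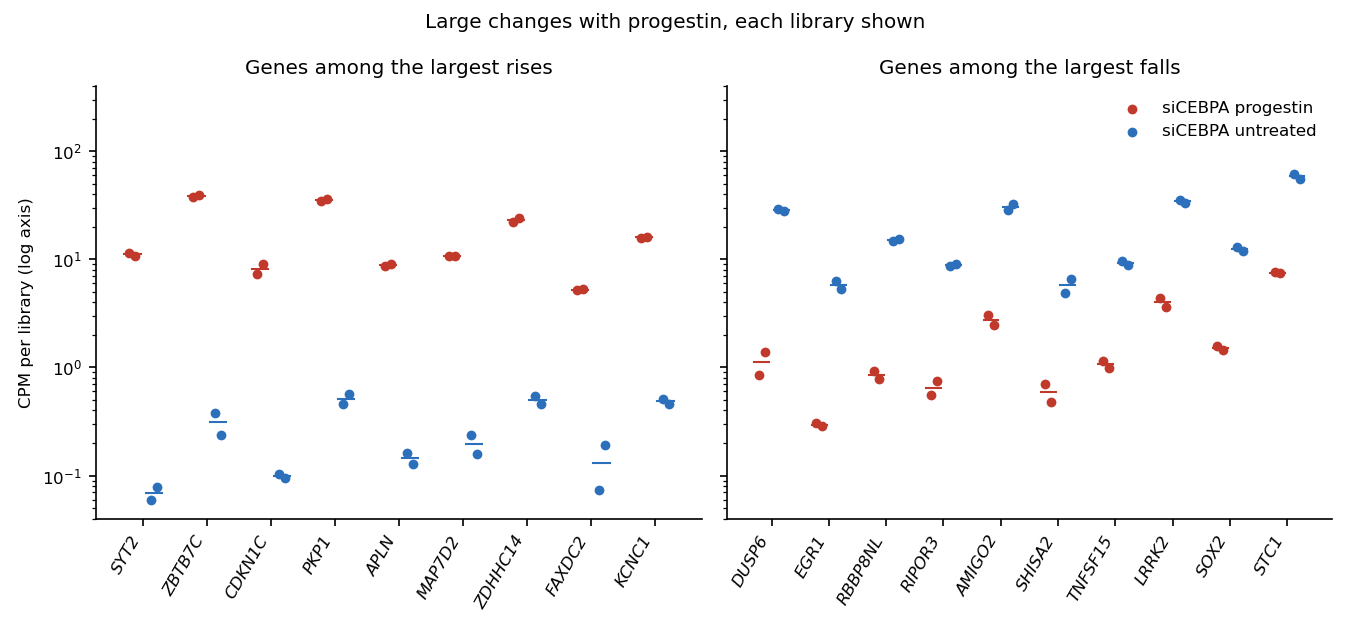
CPM per library on a log axis for genes among the largest rises (left) and falls (right), with siCEBPA progestin in red left of siCEBPA untreated in blue and a line at each group's mean of 2 libraries. Only genes whose groups do not overlap were taken. SYT2 stands at 11.5 and 10.6 CPM with progestin against 0.0589 and 0.0792 CPM untreated, and DUSP6 at 0.860 and 1.40 CPM against 29.0 and 28.1 CPM.

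By the CPM gained, which is not corrected for transcript length, AHNAK, a very large scaffold protein, led with 5062 and 4989 CPM with progestin and 2196 and 2283 CPM untreated (1.17 ± 0.05). HSPA8, the constitutive HSP70 chaperone, had 8259.9 and 8435 CPM with progestin and 5409 and 5853 CPM untreated (0.57 ± 0.04). SCD, the desaturase that makes oleic acid, had 3545 and 3345 CPM with progestin and 1912 and 1740.4 CPM untreated (0.92 ± 0.05). These genes rose by smaller factors than those above, and they too were taken only from genes whose groups did not overlap. DDR1, a collagen receptor kinase, had 1318 and 1418 CPM with progestin and 456 and 441 CPM untreated (1.61 ± 0.04). KRT19 had 2848 and 3076 CPM with progestin and 1743 and 1771 CPM untreated (0.75 ± 0.05). The largest loss in CPM was of IGFBP5, a secreted carrier of IGF1 and IGF2, with 1787 and 1837 CPM with progestin and 3504 and 3745 CPM untreated (adjusted p = 1.46e-11). SERPINA6, which encodes the corticosteroid-binding globulin, had 1923 and 1920.4 CPM with progestin and 2594 and 2707 CPM untreated (-0.46 ± 0.04). CDV3 (-1.23 ± 0.04), IGFBP4 (-0.97 ± 0.05), KRT18 (-0.79 ± 0.04) and the GATA-type repressor TRPS1 (-0.63 ± 0.04) were also among the largest losses in CPM.

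Gene lists of 37 pathways and cell types were read against the whole, where 29.9% of genes rose and 28.4% fell. Of 17 steroid receptors and coregulators, 5 rose and 10 fell. Receptor genes that fell were, besides PGR, the glucocorticoid receptor gene NR3C1 (-0.45 ± 0.06), the mineralocorticoid receptor gene NR3C2 (-1.19 ± 0.13) and the oestrogen receptor genes ESR1 (-0.32 ± 0.04) and ESR2 (-1.77 ± 0.29). ESR1 had 128 and 129 CPM with progestin and 164 and 155 CPM untreated. TRERF1, a transcriptional regulator of steroidogenic genes, fell most, with 3.28 and 2.78 CPM with progestin and 22.4 and 21.3 CPM untreated (-2.85 ± 0.09). The coactivators of mitochondrial genes went in opposite directions, with PPARGC1B at 41.8 and 42.1 CPM with progestin and 16.3 and 17.8 CPM untreated (1.30 ± 0.06), and PPARGC1A at 0.947 and 0.779 CPM with progestin and 4.00 and 4.18 CPM untreated (-2.24 ± 0.16). The p160 coactivator gene NCOA1 rose slightly (0.39 ± 0.04), and its relative NCOA2 was at -0.09 ± 0.05, which did not pass the test.

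Of 21 receptor chaperones and heat shock genes, 18 rose and none fell, with a median of 0.41 against -0.03 for all genes, and 2 fell with upper quartile scaling or with no scaling factors. FKBP5, the co-chaperone that lowers the hormone affinity of steroid receptors, had 576 and 566 CPM with progestin and 114 and 110.0 CPM untreated (2.35 ± 0.04). BAG3, a co-chaperone of HSP70 in autophagy, had 163 and 170.4 CPM with progestin and 50.2 and 50.1 CPM untreated (1.73 ± 0.04). DNAJB1, an HSP40 co-chaperone, had 289 and 290.1 CPM with progestin and 125 and 122 CPM untreated (1.23 ± 0.04). The inducible HSP70 genes HSPA1A (1.71 ± 0.09) and HSPA1B (1.97 ± 0.13) also rose, although the split of reads between these near-identical copies is uncertain. HSP90 genes rose less, HSP90AA1 by 0.39 ± 0.05 and HSP90AB1 by 0.32 ± 0.04, while FKBP4 (-0.08 ± 0.04) and the HSP90 co-chaperone PTGES3 (-0.01 ± 0.04) did not pass the test.

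The promoter of HSPA8 is shown because this chaperone made the second largest gain in CPM and was the only one of 20 matched members of the list with a heat shock element, searched on both strands as GAA, any 2 bases, TTC, any 2 bases and GAA in the 250 bases before the start. Capitals mark the 2 matches, of which the first bases lie 230 and 55 bases before the start, on chr11:123062137-123062386, minus strand, GRCh38.p14, sequence from RefSeq.
HSPA8: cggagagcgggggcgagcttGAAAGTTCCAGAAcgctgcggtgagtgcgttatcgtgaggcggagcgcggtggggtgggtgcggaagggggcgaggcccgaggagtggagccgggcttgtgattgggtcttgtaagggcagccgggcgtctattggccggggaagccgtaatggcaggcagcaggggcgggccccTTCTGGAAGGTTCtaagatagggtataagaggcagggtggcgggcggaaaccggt
The element was present in 0.439% of 27305 promoters, in 0.3% of 12326 promoters of tested genes, in 0.480% of 1041 promoters of genes that rose at least 2-fold and in 0.233% of 860 of genes that fell at least 2-fold. The progesterone response element, searched as GNACA, any 3 bases and TGTNC, was present in 0.288% of the promoters of the risers and in 0.465% of those of the fallers, against 0.162% of those of tested genes and 0.33% of all. The C/EBP motif TTGCNNAA, on either strand, was present in 7.40% of the risers' and 7.67% of the fallers' promoters, against 6.18% of those of tested genes and 9.13% of all. For the heat shock and progesterone response elements the shares of risers and fallers rest on a few promoters each. No difference between these shares was tested. A match is a description of these letters and not a binding site.

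Of 29 classical progestin and glucocorticoid targets, 26 rose and 2 fell, and 22 rose at least 2-fold. This list was drawn up from genes known to respond to these hormones. TSC22D3, which encodes the anti-inflammatory protein GILZ, had 457 and 425 CPM with progestin and 30.1 and 27.7 CPM untreated (3.93 ± 0.06). IL20RA, a cytokine receptor chain, had 259 and 248 CPM with progestin and 22.5 and 23.0 CPM untreated (3.48 ± 0.05). PDK4, the kinase that shuts off pyruvate dehydrogenase, had 33.6 and 32.4 CPM with progestin and 1.93 and 2.25 CPM untreated (3.98 ± 0.10). In these 3 genes the libraries of the groups lay far apart. S100P (4.46 ± 0.08), the tissue factor gene F3 (3.44 ± 0.13), NDRG1 (3.65 ± 0.08), the cortisol-inactivating enzyme HSD11B2 (2.70 ± 0.12) and the zinc finger repressor KLF15 (3.92 ± 0.13) rose as well. ZBTB16, a target used as a hormone marker in endometrium, had 41 and 30 counts with progestin and 0 and 1 untreated. The 2 that fell were the ETS factors ELF5 (-1.42 ± 0.06) and EHF (-1.71 ± 0.05), and GRHL1 did not pass the test (-0.03 ± 0.06).

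Of 18 genes of epithelial sodium transport 10 rose, 8 of them at least 2-fold, and 6 fell. SCNN1G, the gamma subunit of the epithelial sodium channel, had 19.8 and 19.5 CPM with progestin and 0.780 and 0.412 CPM untreated (5.02 ± 0.18). ATP1B1, the beta subunit of the sodium pump, had 337 and 328 CPM with progestin and 104 and 102 CPM untreated (1.69 ± 0.04). The other channel subunits moved the other way, with SCNN1A at -0.32 ± 0.05 and SCNN1B at -0.28 ± 0.10, as did PRSS8, a protease that activates the channel (-0.98 ± 0.07). The kinase SGK1, which keeps the channel at the membrane, rose by 1.82 ± 0.16, and NEDD4L, which removes it, by 1.13 ± 0.06.

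Among 18 KLF and SP factors 7 rose and 8 fell. KLF4, which promotes epithelial differentiation, had 108 and 114 CPM with progestin and 23.6 and 26.8 CPM untreated (2.14 ± 0.07). KLF13 had 79.2 and 79.5 CPM with progestin and 20.7 and 19.8 CPM untreated (1.97 ± 0.06), and KLF9, which binds GC boxes with PGR in uterus, rose by 1.27 ± 0.08. SP1, the ubiquitous GC box factor, had 144 and 146 CPM with progestin and 288 and 279 CPM untreated (-0.97 ± 0.04). Among 24 circadian clock genes 6 rose and 10 fell. Of the repressors, PER1 (1.51 ± 0.08) and CRY2 (0.88 ± 0.05) rose and PER3 (-1.01 ± 0.07) and CRY1 (-0.22 ± 0.07) fell, and the activator gene BMAL1 (-0.49 ± 0.08), the nuclear receptor gene NR1D2 (-1.29 ± 0.06) and TEF (-1.71 ± 0.08), an output factor of the clock, fell. NR1D2 had 46.5 and 41.0 CPM with progestin and 107 and 107 CPM untreated.

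Of 13 mitogenic progestin targets 8 rose and 4 fell. CCND1, the gene of cyclin D1, had 309 and 295 CPM with progestin and 166 and 169.9 CPM untreated (0.84 ± 0.05, adjusted p = 3.12e-10). BCL2L1, which encodes the survival protein BCL-XL, had 750.1 and 762 CPM with progestin and 317 and 323 CPM untreated (1.24 ± 0.04). MYC had 48.9 and 50.4 CPM with progestin and 40.3 and 38.1 CPM untreated (0.34 ± 0.06). The libraries of the groups did not overlap in any of the 3, and MYC changed least. Of 14 EGF ligands and ERBB receptors 7 rose and 5 fell. The ligand genes TGFA, with 80.0 and 75.0 CPM with progestin and 24.0 and 23.2 CPM untreated (1.72 ± 0.06), and EGF, with 55.0 and 53.2 CPM with progestin and 17.5 and 18.4 CPM untreated (1.59 ± 0.06), rose together with their receptor EGFR (0.94 ± 0.06). The ligands AREG (-0.63 ± 0.10) and HBEGF (-0.86 ± 0.12) fell, as did the other receptors ERBB2 (-0.52 ± 0.04), ERBB3 (-0.48 ± 0.04) and ERBB4 (-1.31 ± 0.07). LRIG1, which degrades ERBB receptors, had 405 and 398 CPM with progestin and 131 and 133 CPM untreated (1.60 ± 0.04).

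Genes listed as ERK feedback genes fell more often than they rose. Of 18 ERK feedback genes 9 fell, 7 of them at least 2-fold, and 5 rose. Besides DUSP6, the phosphatase DUSP4 had 18.9 and 20.7 CPM with progestin and 111 and 112 CPM untreated (-2.49 ± 0.06). The Sprouty inhibitors SPRY1 (-1.77 ± 0.07), SPRY2 (-2.24 ± 0.09) and SPRY4 (-2.04 ± 0.18) fell, and so did PHLDA1, at 22.8 and 22.6 CPM with progestin and 79.6 and 77.4 CPM untreated (-1.79 ± 0.05). IER3, a survival gene in the same list, had 52.2 and 49.5 CPM with progestin and 16.3 and 14.6 CPM untreated (1.72 ± 0.07). The other members that rose were DUSP7 (0.57 ± 0.10), SPRED2 (0.43 ± 0.06), RASA2 (0.29 ± 0.06) and CCND1. Of 23 immediate early genes 12 fell and 9 rose, with a median of -0.83, which was -0.01 when genes under a mean of 1 CPM were left out. All 3 tested EGR genes fell. EGR3 was at -2.51 ± 0.71, and EGR2 had 0 counts in both progestin libraries and 12 and 10 untreated, at least 7.36-fold lower. FOS fell (-2.30 ± 0.22) with FOSB (-2.27 ± 0.23), NR4A1 (-2.16 ± 0.09) and CCN2 (-3.64 ± 0.20), while JUN (1.12 ± 0.07), JUNB (0.64 ± 0.20) and JUND (0.94 ± 0.12) rose. FOSL2, another AP-1 subunit, had 44.6 and 43.6 CPM with progestin and 12.7 and 13.3 CPM untreated (1.77 ± 0.06), and IER5 had 113 and 121 CPM with progestin and 49.5 and 50.1 CPM untreated (1.23 ± 0.05). With EGR2 set at its bound the median of the list was again -0.83.

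The promoter of EGR1 is shown because this gene had the second largest fall among genes that reached 5 CPM and was the only one of 17 matched immediate early genes with a CArG box, the element bound by serum response factor. Capitals mark 2 boxes, of which the first bases lie 105 and 83 bases before the start, on chr5:138465229-138465478, plus strand, GRCh38.p14, sequence from RefSeq.
EGR1: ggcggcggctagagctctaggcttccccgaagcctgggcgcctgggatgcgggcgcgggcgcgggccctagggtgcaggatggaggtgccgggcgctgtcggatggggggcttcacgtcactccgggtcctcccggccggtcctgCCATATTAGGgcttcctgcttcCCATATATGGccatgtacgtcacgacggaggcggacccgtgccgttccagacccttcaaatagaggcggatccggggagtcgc
The box was present in 1.14% of all 27305 promoters, in 1.03% of those of tested genes, in 1.15% of those of genes that rose and 1.51% of those of genes that fell at least 2-fold. The other 16 matched members held none in these 250 bases.

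Proliferation genes went in several directions. Of 30 mitosis genes 22 fell and 1 rose, by small factors, none of them 2-fold, and 2 rose without untreated replicate 1 and none with no scaling factors. CENPE, a kinesin of the kinetochore, had 69.3 and 63.3 CPM with progestin and 103 and 98.9 CPM untreated (-0.61 ± 0.06). ASPM, of the spindle pole, had 98.0 and 92.2 CPM with progestin and 166 and 153 CPM untreated (-0.75 ± 0.06). CDC25C, the phosphatase that activates CDK1, had 11.9 and 10.5 CPM with progestin and 22.4 and 18.1 CPM untreated (-0.85 ± 0.10). TOP2A, topoisomerase II alpha, had 547 and 516 CPM with progestin and 713 and 634 CPM untreated (-0.34 ± 0.06), and TOP2B had 206 and 187 CPM with progestin and 203 and 193 CPM untreated (-0.01 ± 0.05, adjusted p = 0.882). TOP2B passed the test as lower with upper quartile scaling (adjusted p = 0.0223) and with no scaling factors (adjusted p = 0.00630). Of 36 DNA replication genes 12 fell and 1 rose, 22 fell with upper quartile scaling, 26 with no scaling factors, and 7 without untreated replicate 1, and 3 rose without progestin replicate 1. The gene that rose was GINS2, a subunit of the replicative helicase, with 339 and 325 CPM with progestin and 134 and 119 CPM untreated (1.39 ± 0.06). Its complex partner GINS3 fell, at 11.1 and 9.89 CPM with progestin and 20.8 and 17.8 CPM untreated (-0.88 ± 0.09).

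Of 23 G1 cyclins, kinases, E2F and RB genes 11 rose and 12 fell, with 7 higher under upper quartile scaling or no scaling factors and 7 lower without untreated replicate 1. Among those that rose were the G1 drivers CCND1, CDK6, with 28.1 and 27.2 CPM with progestin and 9.96 and 10.6 CPM untreated (1.43 ± 0.08), and CCNE1 (1.06 ± 0.09). The pocket protein genes RB1 (-0.28 ± 0.06), RBL1 (-0.81 ± 0.07) and RBL2 (-0.46 ± 0.05) fell. The E2F genes divided. E2F1 (-0.52 ± 0.07), E2F7 (-0.86 ± 0.06), E2F2, E2F5 and E2F8 fell, and E2F3 (0.63 ± 0.06), E2F4 (0.51 ± 0.05) and E2F6 (0.26 ± 0.06) rose. Of 16 CDK inhibitors and antiproliferative genes 9 rose and 5 fell (3 fell without untreated replicate 1). CDKN1A, which encodes p21, had 211 and 219 CPM with progestin and 133 and 131 CPM untreated (0.70 ± 0.04), and CDKN1C is described above. The GADD45 genes of growth arrest rose together, GADD45A by 1.65 ± 0.12, GADD45B by 1.32 ± 0.08 and GADD45G by 2.13 ± 0.17. BTG2 had 60.2 and 52.3 CPM with progestin and 22.7 and 22.2 CPM untreated (1.32 ± 0.07), and its relative BTG1 had 90.3 and 82.5 CPM with progestin and 253 and 235 CPM untreated (-1.49 ± 0.05). CDKN1B, the p27 gene, did not pass the test (-0.05 ± 0.07).

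Among 21 p53 targets 7 rose and 12 fell. RRM2B, a ribonucleotide reductase subunit, had 165 and 159 CPM with progestin and 60.6 and 58.5 CPM untreated (1.45 ± 0.05). PLK2, a kinase of centriole duplication, had 39.1 and 36.5 CPM with progestin and 247 and 253 CPM untreated (-2.72 ± 0.06). MDM2 (-0.35 ± 0.05) and the stress cytokine GDF15 (-1.58 ± 0.17) fell, and the death receptor TNFRSF10B rose (0.89 ± 0.05). Among 15 BCL2 family genes 6 rose and 4 fell, with a median of 0.15 that was -0.02 with no scaling factors. The BH3-only genes BIK (1.93 ± 0.11) and BMF (0.71 ± 0.06) and the effector BAK1 (0.63 ± 0.05) rose beside BCL2L1, and BCL2 itself fell (-1.73 ± 0.28).

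Genes of glucose use rose more often than they fell. Of 30 glycolysis and hypoxia genes 18 rose and 6 fell (14 and 10 with no scaling factors). PFKFB3, which makes the activator of phosphofructokinase, had 929.8 and 956 CPM with progestin and 91.6 and 88.4 CPM untreated (3.39 ± 0.04). Hexokinase HK2 had 68.4 and 73.5 CPM with progestin and 17.5 and 17.6 CPM untreated (2.01 ± 0.07), and LDHA, which makes lactate, had 942 and 922 CPM with progestin and 411 and 379 CPM untreated (1.24 ± 0.05). The glucose transporter gene SLC2A1 (1.77 ± 0.06), BNIP3 (1.73 ± 0.05) and VEGFA (1.04 ± 0.08) rose too, whereas GAPDH (0.05 ± 0.04) and PKM (0.05 ± 0.04) did not pass the test. Of 14 genes of pyruvate dehydrogenase and its regulators 5 rose and 4 fell, with a median of 0.09 that turned to -0.04 and -0.08 with upper quartile and no scaling, and 2 fell without untreated replicate 1. PDP1, the phosphatase that opposes PDK4, fell (-1.14 ± 0.09) where PDK4 rose.

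Of 31 genes of fatty acid synthesis, storage and oxidation 14 rose and 11 fell, with a median of 0.15 that was -0.01 with no scaling factors. Genes of synthesis and storage that rose were SREBF1, the lipogenic transcription factor (1.60 ± 0.07), ACACA (0.69 ± 0.04), FASN (0.52 ± 0.11), ELOVL5, at 216 and 206 CPM with progestin and 79.8 and 76.5 CPM untreated (1.43 ± 0.05), and the droplet protein HILPDA (1.19 ± 0.05). ACSL1, which activates fatty acids, had 345 and 338 CPM with progestin and 133 and 134 CPM untreated (1.36 ± 0.04). Other genes of synthesis and storage fell, among them ACACB (-1.05 ± 0.12), LPIN1 (-0.72 ± 0.07), SCD5 (-0.66 ± 0.22), GPAM (-0.49 ± 0.07), DGAT1 (-0.41 ± 0.08) and FADS2 (-0.30 ± 0.07). Of the oxidation genes, CPT1A, the entry step into mitochondria (-0.44 ± 0.04), CPT2 (-0.21 ± 0.05) and ACADM (-0.36 ± 0.07) fell, while HADHA rose (0.15 ± 0.05). Of 26 cholesterol genes 17 rose and 6 fell. The synthesis enzymes SQLE, at 472 and 449 CPM with progestin and 204 and 188 CPM untreated (1.23 ± 0.05), and DHCR7 (1.21 ± 0.05) rose together with the exporters ABCA1 (1.31 ± 0.12) and ABCG1 (1.15 ± 0.07). INSIG1, a target and brake of the same SREBP pathway, fell (-0.47 ± 0.07), and so did the ubiquitin ligase MYLIP (-1.33 ± 0.07).

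Of 22 amino acid stress genes 8 rose and 11 fell (5 rose with no scaling factors). DDIT4, an inhibitor of mTORC1, had 61.3 and 65.7 CPM with progestin and 14.8 and 14.8 CPM untreated (2.10 ± 0.06), and STC2, a secreted glycoprotein, had 274 and 285 CPM with progestin and 927 and 1002 CPM untreated (-1.79 ± 0.05). The serine synthesis genes PSPH (-1.07 ± 0.06), PSAT1 (-0.60 ± 0.05) and PHGDH (-0.16 ± 0.05) fell, as did ATF4 (-0.39 ± 0.05), a transcription factor of this response. Of 21 genes of the unfolded protein response 12 rose and 2 fell (8 and 5 with no scaling factors). MANF, a secreted survival factor, had 97.8 and 106 CPM with progestin and 35.6 and 36.1 CPM untreated (1.51 ± 0.06), and the genes that fell were XBP1 (-0.49 ± 0.04) and CALR (-0.23 ± 0.04). HSPA5, the main chaperone of the endoplasmic reticulum, did not pass the test (0.09 ± 0.05). Of 26 genes of MYC and ribosome biogenesis 22 rose and none fell, all less than 2-fold, and 1 and 2 fell with upper quartile and no scaling. NOP16 had 73.7 and 71.5 CPM with progestin and 38.9 and 39.9 CPM untreated (0.88 ± 0.05), and the nucleolar methyltransferase FBL had 82.5 and 82.2 CPM with progestin and 58.2 and 54.1 CPM untreated (0.55 ± 0.05).

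Most genes of luminal transcription factors fell. Of 22 luminal transcription factors 17 fell and 3 rose, with a median of -0.63. FOXA1, the pioneer factor that opens chromatin for steroid receptors, had 97.4 and 94.8 CPM with progestin and 437 and 428 CPM untreated (-2.17 ± 0.05). GATA3, a master regulator of luminal fate, had 307 and 329 CPM with progestin and 487 and 503 CPM untreated (-0.64 ± 0.04). EHF had 73.4 and 67.7 CPM with progestin and 231 and 229.9 CPM untreated (-1.71 ± 0.05). Among the grainyhead factors GRHL2 rose, at 447 and 429.7 CPM with progestin and 178 and 167 CPM untreated (1.34 ± 0.04), and GRHL3 fell (-2.61 ± 0.12). The AP-2 genes TFAP2A (-0.79 ± 0.05), TFAP2B (-1.68 ± 0.20) and TFAP2C (-1.28 ± 0.06) all fell. Of 17 keratins 6 rose and 6 fell. The simple keratins divided, with KRT19 higher, KRT18 lower, at 598 and 589.6 CPM with progestin and 1015 and 1032 CPM untreated (-0.79 ± 0.04), and KRT8 slightly lower (-0.15 ± 0.05). KRT23 had 234 and 231 CPM with progestin and 599 and 645 CPM untreated (-1.42 ± 0.05).

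Of 12 desmosome genes 6 rose and 5 fell, with a median of 0.08 that was -0.05 with upper quartile scaling, and 3 fell without progestin replicate 1 or without untreated replicate 2. The plakophilins split, PKP1 up and PKP2 down, with PKP2 at 27.6 and 29.1 CPM with progestin and 58.2 and 58.2 CPM untreated (-1.04 ± 0.05). Periplakin PPL had 274 and 287 CPM with progestin and 50.4 and 52.7 CPM untreated (2.44 ± 0.05), and plakoglobin JUP had 395 and 415 CPM with progestin and 593 and 609 CPM untreated (-0.57 ± 0.05). Of 17 tight junction genes 10 rose and 4 fell. CLDN1, the claudin of tight barriers, had 41.8 and 37.1 CPM with progestin and 122 and 122 CPM untreated (-1.63 ± 0.06), while CLDN4 rose (0.55 ± 0.04) with cingulin CGN (0.77 ± 0.04) and MARVELD3 (1.06 ± 0.04).

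Of 26 oestrogen-responsive genes 9 rose and 13 fell. CXCL12, a chemokine, had 85.8 and 89.3 CPM with progestin and 327 and 320.5 CPM untreated (-1.89 ± 0.05). IGFBP4 had 414 and 440.3 CPM with progestin and 822 and 848 CPM untreated (-0.97 ± 0.05). GREB1, a cofactor of the oestrogen receptor (1.12 ± 0.04), and ABCC5 (1.36 ± 0.04) rose. Of 20 prolactin receptor, STAT and SOCS genes 8 rose and 7 fell. STAT5A, which carries the prolactin signal, had 14.7 and 14.4 CPM with progestin and 4.43 and 4.91 CPM untreated (1.64 ± 0.09), and STAT6 had 97.4 and 95.1 CPM with progestin and 188 and 197 CPM untreated (-0.998 ± 0.04). The feedback inhibitor SOCS3 fell (-1.26 ± 0.10) and CISH rose (0.99 ± 0.08).

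Of 26 genes of BMP and TGF-beta feedback and ID factors 11 rose and 9 fell. INHBB, which encodes the activin beta B chain, had 274 and 293 CPM with progestin and 57.5 and 61.9 CPM untreated (2.25 ± 0.05). ID1, ID3 and ID4, inhibitors of helix-loop-helix factors, fell, with changes of -1.84, -1.39 and -1.05, and ID2 rose (1.49 ± 0.08). All 4 tested metallothionein genes rose, MT2A most, with 85.6 and 99.0 CPM with progestin and 18.9 and 19.8 CPM untreated (2.25 ± 0.08), together with their activator MTF1 (1.14 ± 0.04), and the zinc exporter SLC30A1 fell (-0.84 ± 0.05). Metallothionein copies are near-identical, so single members are uncertain. In the C/EBP and Tribbles list, 8 members were tested, of which 5 rose and 1 fell. Besides CEBPA, CEBPB had 11.2 and 11.8 CPM with progestin and 4.40 and 4.196 CPM untreated (1.42 ± 0.09), CEBPD had 9.75 and 13.5 CPM with progestin and 1.66 and 1.46 CPM untreated (2.89 ± 0.23), and CEBPG had 153 and 149.8 CPM with progestin and 64.2 and 63.2 CPM untreated (1.25 ± 0.05). DDIT3, a C/EBP relative of stress, fell (-0.32 ± 0.07).

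**Figure D3:**
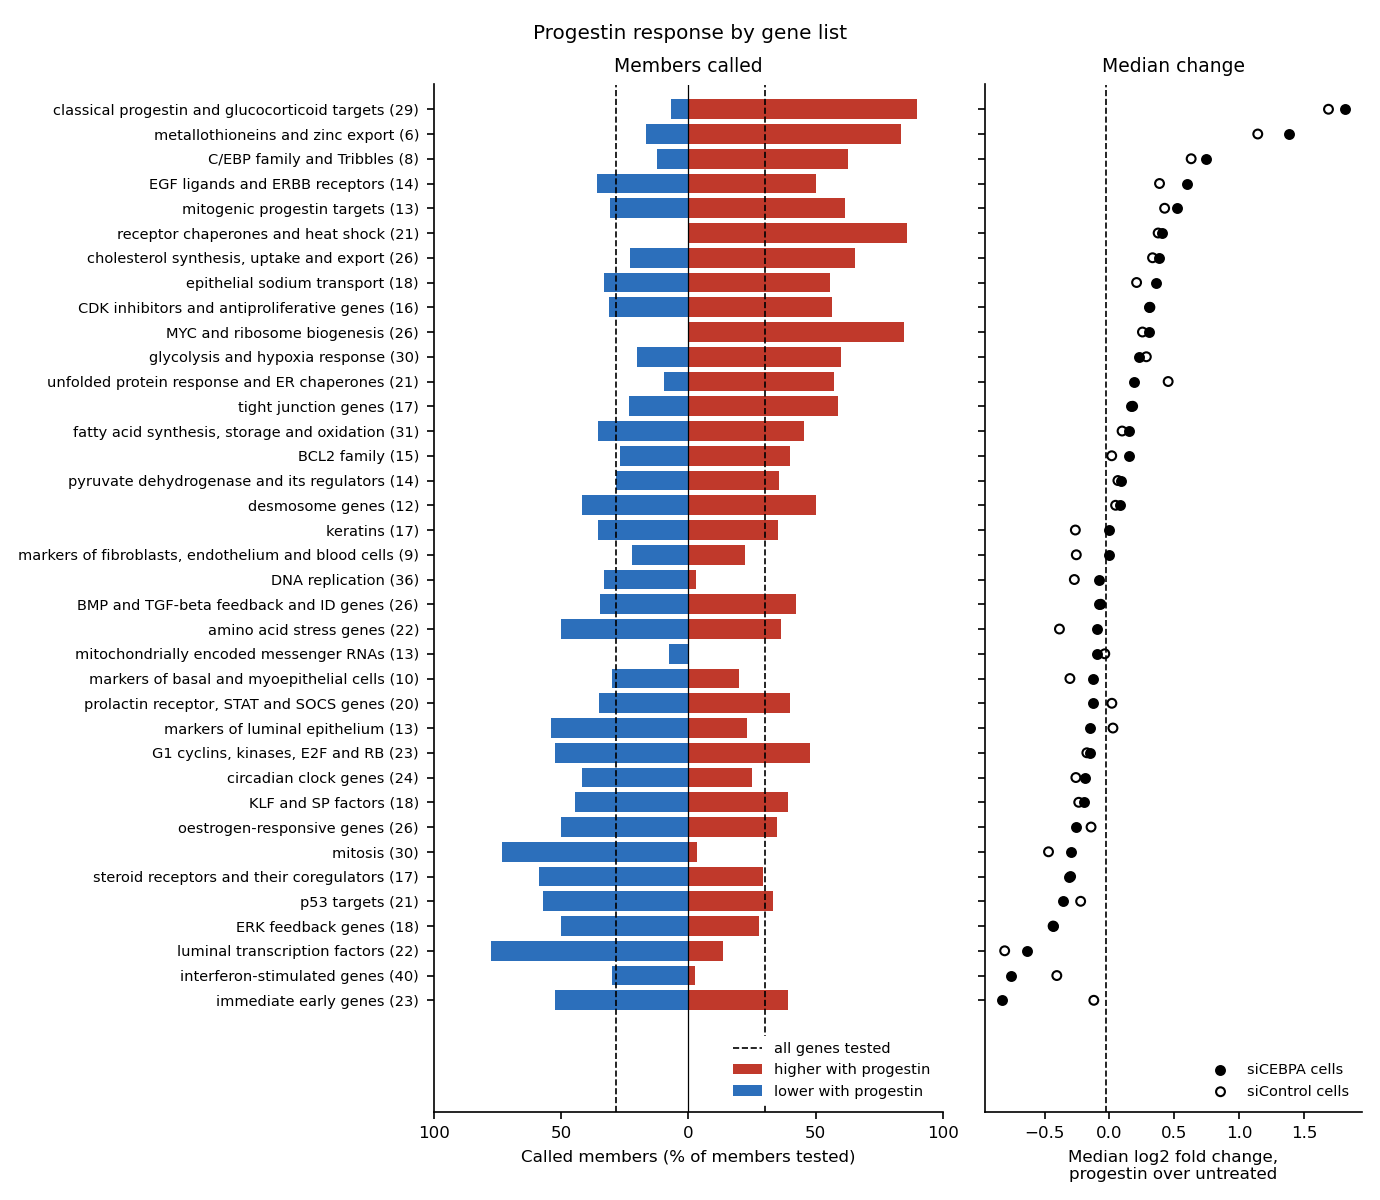
Left, share of the tested members of each list (number in brackets) called higher (red, to the right) or lower (blue, to the left) with progestin in siCEBPA cells, with dashed lines at the shares of all genes, 29.9 and 28.4%. Right, the median log2 fold change of each list in siCEBPA cells (filled) and siControl cells (open), with a dashed line at the median of all genes in siCEBPA cells, -0.03; lists run from classical targets at 1.82 to immediate early genes at -0.83.

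Interferon-stimulated genes, which encode antiviral effectors and sensors, differed between replicates. Their share called lower with hormone was close to that of all genes. A larger share of them fell at least 2-fold, and a smaller share rose. In 39 of 40 the level of replicate 2 was above that of replicate 1 in both siCEBPA groups, against 27% of all genes tested. The median ratio of replicate 2 over replicate 1 was 1.65 with progestin and 1.80 untreated, whereas it was 0.991 and 0.990 over genes at a mean of at least 1 CPM. In the siControl libraries the same ratio was 0.809 with progestin and 0.974 untreated. The 40 genes summed to 1322 and 2386 CPM in the progestin libraries and to 1967 and 3608 CPM in the untreated libraries, so each progestin library lay below the untreated one of its number, and the groups overlapped. In replicate 1 alone 37 of 40 were lower with progestin, with a median of -0.76, and in replicate 2 alone 36 of 40, with a median of -0.86. In 17 members both progestin libraries lay below both untreated libraries and in 1 above them, where 40.2% of all genes had such non-overlapping groups with progestin lower and 37.6% with progestin higher. In siControl cells the test called 8 members lower and none higher, with a median of -0.41. There it called 29.3% of all genes lower and 29.2% higher. In siCEBPA cells it called 12 members lower, 9 of them at least 2-fold, and 1 higher. Of all genes the test there called 28.4% lower, 8.34% at least 2-fold lower, and 29.9% higher. With the siCEBPA libraries fitted alone the test called 5 members lower, and 5015 of all 17618 genes tested. The median of the list was -0.76 with all libraries. It was -0.53 without progestin replicate 1, -1.40 without progestin replicate 2, -1.02 without untreated replicate 1 and -0.20 without untreated replicate 2. Without replicate 2 in both siCEBPA groups, which leaves a lone library in each, it was -0.75. IFIT2, which binds viral RNA, had 3.92 and 4.34 CPM with progestin and 19.6 and 24.8 CPM untreated (-2.43 ± 0.13), STAT2, of the interferon receptor pathway, had 43.1 and 45.4 CPM with progestin and 72.7 and 94.4 CPM untreated (-0.92 ± 0.11), and MX2 had 2.58 and 2.45 CPM with progestin and 4.39 and 4.99 CPM untreated (-0.90 ± 0.19). In all 3 both progestin libraries were below both untreated libraries. SP110 was the member that rose, at 11.9 and 12.6 CPM with progestin and 5.40 and 8.85 CPM untreated (0.79 ± 0.20). With the replicate number as a block in the fit, the median of the list was -0.76 as well. Whether the replicate difference had a part in the hormone difference was not tested beyond these values.

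The promoter of IFIT3, at 7.42 and 10.8 CPM with progestin and 22.5 and 42.3 CPM untreated (-1.83 ± 0.41), is shown for a motif that many of these genes hold. The core of the interferon-stimulated response element, searched on either strand as GAAA, any 2 bases and GAAA, was present in 18 of 33 matched members, against 3.07% of 27305 promoters. Capitals mark 2 matches, whose first bases lie 156 and 122 bases before the first of the starts listed for this gene, on chr10:89327747-89327996, plus strand, GRCh38.p14, sequence from RefSeq.
IFIT3: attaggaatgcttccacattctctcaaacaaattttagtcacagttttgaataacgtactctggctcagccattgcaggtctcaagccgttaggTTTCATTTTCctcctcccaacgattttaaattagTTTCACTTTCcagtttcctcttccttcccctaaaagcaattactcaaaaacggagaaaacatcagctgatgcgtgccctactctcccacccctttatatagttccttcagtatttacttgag
The same motif was present in 2.26% of the promoters of tested genes, in 2.02% of the promoters of genes that rose and 3.14% of those of genes that fell at least 2-fold.

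**Figure D4:**
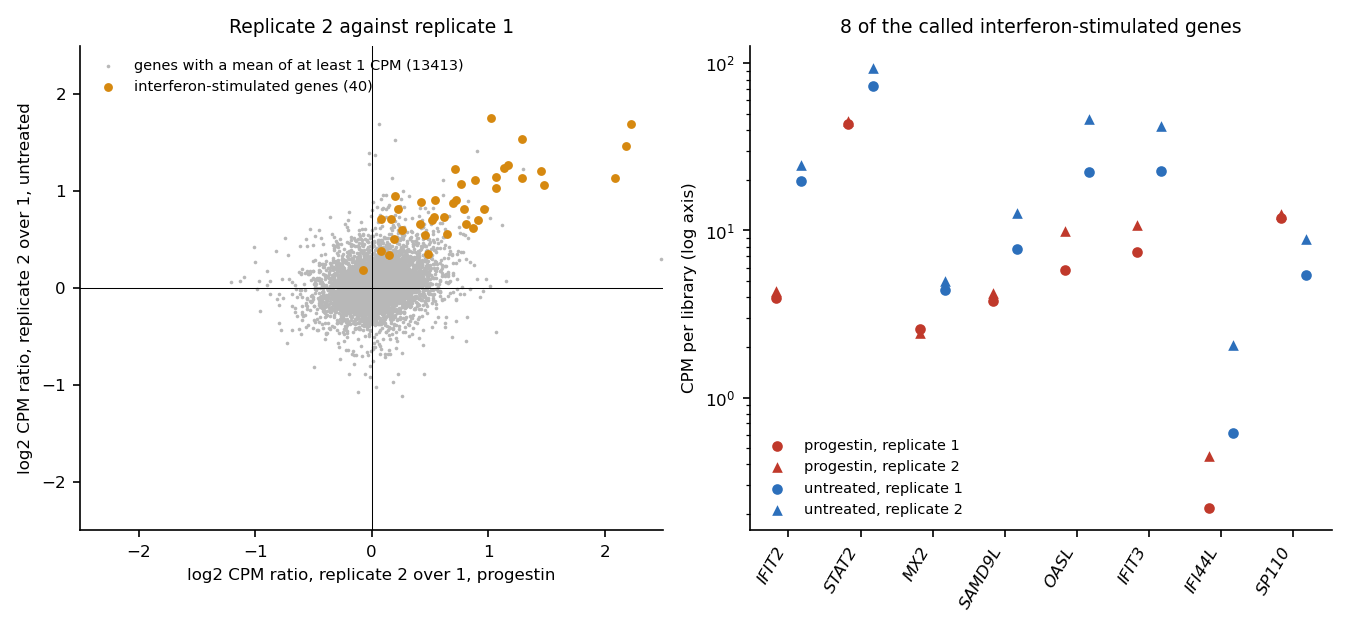
Left, log2 ratio of CPM of replicate 2 over replicate 1 in siCEBPA progestin (x axis) and siCEBPA untreated (y axis) for 13413 genes at a mean of at least 1 CPM (grey, 2 outside the axes) and 40 interferon-stimulated genes (orange). Right, CPM per library on a log axis for 8 called members, progestin in red left of untreated in blue, circles for replicate 1 and triangles for replicate 2. The orange points lie in the upper right, 39 of 40 above 0 on both axes.

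Of 13 mitochondrially encoded messenger RNAs, which summed to 30637 and 28032 CPM with progestin and to 31608 and 29429 CPM untreated, 1 fell and none rose. It was MT-ND6, a subunit of respiratory complex I encoded on the other strand, with 25.2 and 28.6 CPM with progestin and 41.5 and 38.0 CPM untreated (-0.56 ± 0.11). The number called lower was 4 with upper quartile scaling, 6 with no scaling factors, 3 with a filter at 1 CPM, 2 without untreated replicate 2, 2 without replicate 2 in both groups, and 4 with the siCEBPA libraries fitted alone, which also called 1 higher. Among the cell type markers, the luminal list had 7 lower and 3 higher of 13, and the basal list had LAMA3 (0.75 ± 0.05) and KRT5 higher and TP63 (-1.65 ± 0.27), ACTA2 (-0.58 ± 0.10) and CDH3 (-0.22 ± 0.04) lower of 10 tested. PDGFRB had 43 and 49 counts with progestin and 1 and 0 untreated. VWF (1.02 ± 0.33), KDR (-1.68 ± 0.62) and COL1A1 (-0.16 ± 0.07) also passed the test, but missed it with DESeq2 (adjusted p of 0.0622, 0.0796 and 0.0743) and on leaving out single libraries.

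The response was set beside that of siControl cells, which share no library with it, by testing the difference of the 2 responses. In 1329 of 18351 genes (7.24%) it passed the test, 768 (4.19%) more positive and 561 (3.06%) more negative in siCEBPA cells. The count was 692 without siControl progestin replicate 1 and 779 without siControl progestin replicate 2. Genes called in both cells numbered 4565 higher and 4186 lower, and 85 were called in opposite directions. Of 1849 genes called in siCEBPA cells and not in siControl cells, 151 also passed the test of the difference.

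Among genes that reached 5 CPM in a group, more positive responses in siCEBPA cells were led by GABRQ (ENSG00000268089.2, chromosome X from 152638183 to 152657534), a GABA receptor subunit, with 5.51 and 5.64 CPM in siCEBPA progestin and 0.559 and 0.570 CPM in siCEBPA untreated libraries. The siControl libraries held 2.22 and 2.17 CPM with progestin and 1.03 and 0.848 CPM untreated, and the difference was 2.04 ± 0.24 (adjusted p = 8.55e-05). STEAP4 (ENSG00000127954.12, chromosome 7 from 88270892 to 88306891), a metalloreductase, had 13.97 and 12.1 CPM in siCEBPA progestin and 3.47 and 3.56 CPM in siCEBPA untreated libraries. In siControl cells it had 11.1 and 10.1 CPM with progestin and 11.1 and 10.9 CPM untreated, where the libraries overlapped and the change of -0.05 did not pass the test (difference 1.94 ± 0.14). PKP1 rose by 6.11 in siCEBPA and by 4.19 in siControl cells (difference 1.91 ± 0.18), and RASD2, a small GTPase, by 4.19 and 2.45 (1.74 ± 0.15). The muscarinic receptor CHRM4 had a difference of 1.67 ± 0.25, and FAXDC2 one of 1.87 ± 0.38, which missed the threshold without siCEBPA untreated replicate 1 (adjusted p = 0.0856).

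More negative responses were led by NES (ENSG00000132688.10, chromosome 1 from 156668763 to 156677397), which encodes the intermediate filament nestin and rose in both cells. It had 4.31 and 4.36 CPM in siCEBPA progestin and 1.69 and 1.31 CPM in siCEBPA untreated libraries, and 11.9 and 11.3 CPM in siControl progestin and 0.643 and 0.603 CPM in siControl untreated libraries (difference -2.70 ± 0.21). ARID5B, a chromatin factor of fat metabolism, had 6.12 and 5.87 CPM in siCEBPA progestin and 28.6 and 28.8 CPM in siCEBPA untreated libraries, and 9.06 and 9.52 CPM in siControl progestin and 14.1 and 14.2 CPM in siControl untreated libraries (difference -1.65 ± 0.11). PKP2 fell in siCEBPA cells (-1.04) and rose in siControl cells (0.46), with 52.2 and 51.1 CPM in siControl progestin and 38.4 and 37.0 CPM in siControl untreated libraries (difference -1.49 ± 0.08). EFNA3, an ephrin, rose by 1.95 in siCEBPA and 3.30 in siControl cells (difference -1.35 ± 0.08). The MAP kinase phosphatase genes DUSP1 (1.05 in siCEBPA, 2.39 in siControl, difference -1.34 ± 0.09) and DUSP6 (-4.67 in siCEBPA, -3.22 in siControl, difference -1.45 ± 0.19) also had more negative responses.

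PGR fell less in siCEBPA cells, with a change of -1.15 there and -1.84 in siControl cells (difference 0.69 ± 0.05), and FOXA1 likewise (-2.17 and -2.60, difference 0.43 ± 0.07). CCND1 rose more (0.84 and 0.43, difference 0.42 ± 0.07, adjusted p = 0.00106). Differences of 0.40 ± 0.10 for CEBPA, 0.26 ± 0.06 for CDKN1A and 0.28 ± 0.06 for ESR1 passed the test with all libraries. All 3 missed it without siControl progestin replicate 1 and without siControl progestin replicate 2, with adjusted p of 0.0992 and 0.0887 for CEBPA, 0.0807 and 0.0551 for CDKN1A, and 0.08 and 0.0501 for ESR1. CEBPA also missed it without siControl untreated replicate 2 (0.0635), siCEBPA untreated replicate 1 (0.115) or siCEBPA progestin replicate 2 (0.0507). CDKN1A also missed it without siControl untreated replicate 2 (0.0707), and ESR1 without siCEBPA untreated replicate 2 (0.0603). Without replicate 2 in both siCEBPA groups, CDKN1A (0.0697) and ESR1 (0.0756) missed it too. The differences for TOP2A (0.22 ± 0.09, adjusted p = 0.179) and MYC (-0.25 ± 0.08, adjusted p = 0.0675) missed the threshold. TOP2A passed it without siControl untreated replicate 2 (0.0419), without siCEBPA untreated replicate 1 (0.0318) and with no filter on low counts, and MYC with upper quartile scaling, DESeq2 or a filter at 1 CPM. TOP2B was at 0.02 ± 0.07 and GATA3 at -0.03 ± 0.06.

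Among the lists, the difference was more positive in siCEBPA cells for 8 of 22 amino acid stress genes and more negative for none. CHAC1, which degrades glutathione, had 5.11 and 5.31 CPM in siCEBPA progestin and 3.69 and 3.77 CPM in siCEBPA untreated libraries, and 11.6 and 12.95 CPM in siControl progestin and 20.1 and 23.9 CPM in siControl untreated libraries (difference 1.33 ± 0.15). SLC7A5, a carrier of large neutral amino acids, rose in siCEBPA cells (0.29) and fell in siControl cells (-0.35, difference 0.64 ± 0.11). In the unfolded protein response list 7 of 21 differences were more negative and none more positive, with DNAJB9 at 0.97 in siCEBPA and 1.49 in siControl cells. Of 22 luminal transcription factors 10 differences were more positive and 3 more negative, and of 26 oestrogen-responsive genes 10 and 4. IGFBP4 fell in both, with changes of -0.97 in siCEBPA and -1.93 in siControl cells (difference 0.96 ± 0.07). Of 29 classical targets 11 were more positive, such as STAT5A (0.83 ± 0.12), and 5 more negative, among them FKBP5 (-0.30 ± 0.06). Of the 40 interferon-stimulated genes 1 passed, IFIT2 (-0.82 ± 0.19).

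**Figure D5:**
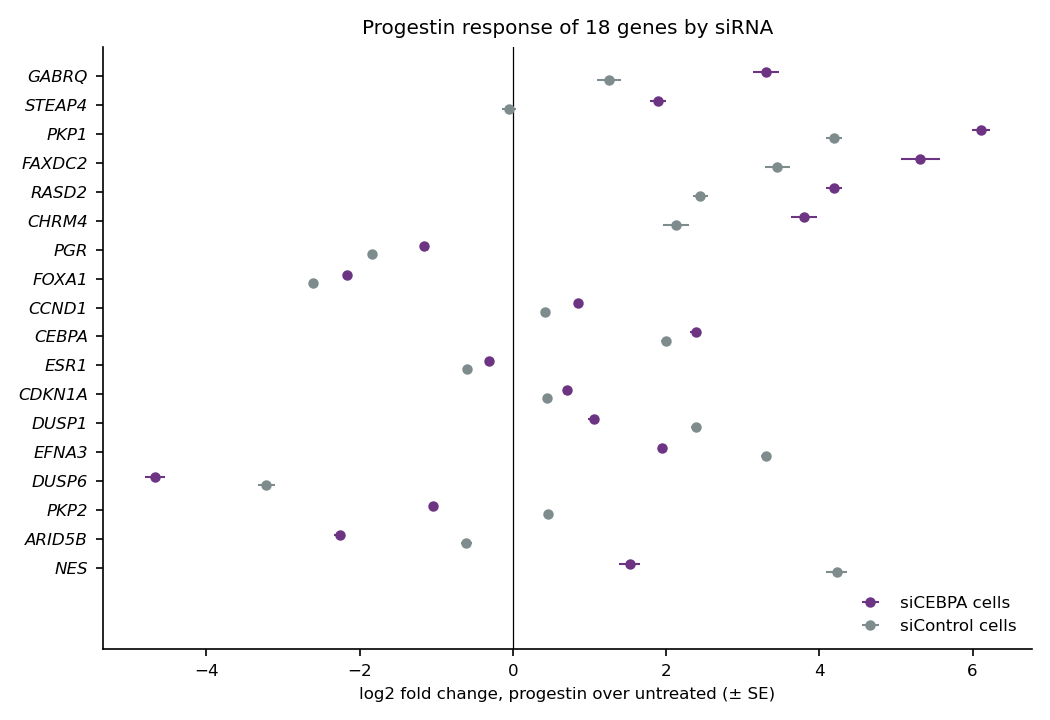
Log2 fold change of progestin over untreated ± standard error for 18 genes whose responses differed, in siCEBPA cells (purple) and siControl cells (grey), n = 2 libraries in each group. STEAP4 lies at 1.89 in siCEBPA and -0.05 in siControl cells, PKP2 at -1.04 and 0.46, and NES at 1.52 and 4.23.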

How the data were processed

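Per the file headers, the deposited counts are whole read pairs per gene from featureCounts 1.5.1, paired and on the reverse strand, for GENCODE 24 genes on hg38, with no option for multi-mapping reads. The submitters' processing notes also name STAR and Trimmomatic. The 8 siRNA libraries, 2 in each of 4 groups taken from the titles, were fitted together in edgeR 4.0.16 (R 4.3.3) with TMM scaling, its filter on low counts, robust quasi-likelihood and Benjamini-Hochberg adjustment over all 18351 genes tested, with 4 residual degrees of freedom. The siCEBPA response, the siControl response and their difference were contrasts of this fit. The procedure was also run on simulated counts in which few genes changed and all had the same spread. That run cannot check the calls here, where most tested genes were called. The 8 libraries held 57364785 to 148624099 counts. Alternatives were DESeq2 1.42.0, other scalings and filters, a replicate block, other sets of libraries and leaving out each library. The 60554 genes in the files had a symbol in 56558 cases. The genes, lists and comparisons were chosen with earlier results of these data known. Genes were named by a rule. The 12 largest rises and falls and the 8 largest by CPM came from called genes at a mean of at least 5 CPM in a siCEBPA group. In these genes the libraries of the 2 siCEBPA groups also had to show no overlap. The rule added 6 near-silent genes, the 4 list members of smallest p, and 10 genes of the study's subject. It also added 6 differences in each direction, among genes at a mean of at least 5 CPM in a group. Other list members named were chosen after their values were seen, and a few genes meeting the rule are left out here. The siControl response was used only for comparison, and the ChIP and inhibitor samples were not analysed here.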

Additional observations from a re-analysis of the deposited data

Results flagged for a closer look

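The responses to progestin of siCEBPA and siControl cells were set against each other by testing their difference in edgeR, on the log2 scale, and 18 named genes were picked out because that test passed. The response was more positive in siCEBPA cells for GABRQ (2.04 ± 0.24), STEAP4 (1.94 ± 0.14), PKP1 (1.91 ± 0.18), FAXDC2 (1.87 ± 0.38), RASD2 (1.74 ± 0.15) and CHRM4 (1.67 ± 0.25). It was more negative for NES (-2.70 ± 0.21), ARID5B (-1.65 ± 0.11), PKP2 (-1.49 ± 0.08), DUSP6 (-1.45 ± 0.19), EFNA3 (-1.35 ± 0.08) and DUSP1 (-1.34 ± 0.09). Smaller differences, all positive, were found for PGR (0.69 ± 0.05), FOXA1 (0.43 ± 0.07), CCND1 (0.42 ± 0.07), CEBPA (0.40 ± 0.10), ESR1 (0.28 ± 0.06) and CDKN1A (0.26 ± 0.06). Values are ± standard error from 2 libraries in each of 4 groups.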

How the results depend on the processing

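No called change or difference of a gene named by the rule changed sign under any alternative run, while the medians of the BCL2, pyruvate dehydrogenase, fatty acid, keratin, desmosome and fibroblast, endothelium and blood lists, all near 0, crossed 0 under another scaling or DESeq2. Of the gene-level checks of named genes, 2307 changes kept their side of the threshold, 14 lost it and 13 gained it, and for the differences of responses 330 kept it, 14 lost it and 8 gained it. Leaving out genes under a mean of 1 CPM left 1708 genes changed at least 2-fold, with 13363 genes tested. On leaving out 1 library at a time, the genes changed with progestin numbered 9128 to 9782, those higher 4899 to 5170, those lower 4229 to 4612, those changed at least 2-fold 2755 to 3038, and the differing responses 692 to 1381. The CEBPA knockdown was then -1.82 to -1.72 with progestin and -2.26 to -2.06 untreated. Upper quartile scaling called 4107 genes higher and 7037 lower, and no scaling factors called 3792 and 7588. DESeq2 called 9709 genes in all. Without replicate 2 in both siCEBPA groups, 8604 genes were called. With the replicate number as a block, 11349 genes changed with progestin and 2271 responses differed, those of TOP2A (adjusted p = 0.0154) and MYC (0.0236) among them. The labels do not say that equal numbers pair the libraries, and deviations of equally numbered siCEBPA libraries correlated at 0.383 over 13413 genes. Depth limited genes of a few counts, whose folds are given as bounds or with intervals.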
